A study of Mus musculus with 8 samples.

Results

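Potassium channels are built from subunits of a large gene family, and 64 gene records of that family were expressed in the sorted cochlear cells described here. They were chosen as the protein-coding genes whose symbol in the NCBIM37 (mm9) annotation begins with *Kcn* and a further letter, without *Kcnj10*, *Kcnj16*, *Kcnq1* and *Kcne1*, that reached at least 1 CPM (a count per 1000000 counts on genes in a library) in at least 2 of the 8 libraries. Of 89 annotated genes with such a symbol, 64 reached this floor and 25 did not, and 14610 protein-coding genes in all reached it. The choice used levels over all libraries. At the edge of the rule, the second-highest CPM over the libraries was 1.00 for *Kcnh3*, which was kept, and 0.989 for *Kcne2*, which was not. Of the members, 4 reached the floor in 1 group only (*Kcnh1*, *Kcnk9* and *Kcns2* in P1 GFP- cells and *Kcnh3* in P6 GFP+ cells) and 9 more in 1 fraction only. Those 9 were *Kcna5* and *Kcna10* in GFP+ cells, and *Kcnc4*, *Kcnd2*, *Kcng4*, *Kcnip2*, *Kcnj3*, *Kcnj14* and *Kcnt2* in GFP- cells. The rule itself thus favoured a difference in all of these members. The 64 records carried 63 symbols, because 2 records on opposite strands of chromosome 17 are both named *Kcnh8*, and they were kept apart.

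RNA-seq was carried out on cells sorted by fluorescence from freshly dissected cochleas of *Lfng-GFP* BAC transgenic mice (strain B6;FVB-Tg(Lfng-EGFP)HM340Gsat/Mmucd) at postnatal day 1 (P1) or postnatal day 6 (P6), without culture or treatment. At either age, cells with the strongest GFP signal (GFP+) and cells without it (GFP-) were collected, which gave 4 groups of 2 replicate libraries, and both fractions came from animals that carry the transgene. The transgene labels most types of supporting cell, but inner pillar cells show little or none of it. The GFP+ fraction is thus a mixture of supporting cell types without those. Cells with weak GFP entered neither fraction, and the paper takes them as probable inner hair cells and inner pillar cells. The GFP- fraction holds the cells without GFP that survived the dissociation, and so not all cells outside the GFP+ fraction. Each library was made from cells sorted out of many cochleas, and nothing in the labels ties the replicates to separate litters, so p-values measure only the spread between libraries, which may be technical. At P1 the medial part of the cochlear duct was dissected away from the lateral wall, whereas at P6 the lateral wall was removed only in part, so age and dissection cannot be told apart. In bulk samples of this kind, fewer cells of a type and less RNA per cell cannot be told apart either.

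A potassium channel is a ring of pore-forming subunits around a narrow filter that lets potassium pass and holds back sodium. Voltage-gated subunits (such as *Kcna*, *Kcnc*, *Kcnd* and *Kcnh*) open on depolarization, modifier subunits (*Kcng*, *Kcns*) form no channel alone but join other voltage-gated subunits, auxiliary subunits (*Kcnab*, *Kcnip*, *Kcne*) change gating and traffic, calcium- and sodium-activated channels (*Kcnma*, *Kcnn*, *Kcnt*) respond to ions inside the cell, inward rectifiers (*Kcnj*) and tandem-pore subunits (*Kcnk*) set the resting potential. In the organ of Corti, potassium that enters hair cells during transduction leaves through their basolateral channels and is taken up by the supporting cells around them. By class, the members were 27 of 29 annotated voltage-gated pore subunits, 5 of 10 modifiers, 7 of 11 auxiliary subunits, 9 of 11 calcium- or sodium-activated genes, 8 of 13 inward rectifiers, 7 of 14 tandem-pore subunits, and *Kcnrg*, a regulator that is no channel subunit by sequence class.

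The selectivity filter is the sequence that pore-forming members share, and it was searched for in the coding sequences of the NCBIM37 annotation as 5 codons for threonine or serine, then valine, isoleucine, leucine or threonine, then glycine, then tyrosine, phenylalanine or leucine, and then glycine. This pattern describes the filter of potassium channels, so a higher share among the members was built into the search. It was found in 54 of the 64 records, compared with 1.53% of 22710 protein-coding genes with a coding sequence, a set that includes the channel genes. All 7 tandem-pore members held it at 2 places, and it was found in 26 of 27 voltage-gated records, 5 of 5 modifiers, 8 of 9 calcium- or sodium-activated members and 8 of 8 inward rectifiers, but in 0 of 7 auxiliary subunits. The windows below show it, as 15 bases in capitals with 12 bases on either side, for members on which the comparisons turned, and each window lies within 1 exon of the NCBIM37 genome. First come members higher in GFP+ cells, and for the tandem-pore members *Kcnk1* and *Kcnk3* the second of their filters is shown.
Kcnh6 (chr11:105880378-105880416, plus strand): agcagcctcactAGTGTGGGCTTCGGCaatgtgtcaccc
Kcnh8 (chr17:53017304-53017342, plus strand): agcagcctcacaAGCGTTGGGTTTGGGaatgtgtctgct
Kcnh7 (chr2:62615388-62615426, minus strand): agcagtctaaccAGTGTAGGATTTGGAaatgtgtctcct
Kcna5 (chr6:126483751-126483789, minus strand): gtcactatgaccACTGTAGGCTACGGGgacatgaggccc
Kcna10 (chr3:106998221-106998259, plus strand): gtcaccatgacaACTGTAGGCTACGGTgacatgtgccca
Kcnk1 (chr8:128549217-128549255, plus strand): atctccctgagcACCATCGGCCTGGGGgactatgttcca
Kcnk3 (chr5:30924563-30924601, plus strand): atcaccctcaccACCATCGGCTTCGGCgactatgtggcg
Next come members higher in GFP- cells at 1 or both ages.
Kcna1 (chr6:126592234-126592272, minus strand): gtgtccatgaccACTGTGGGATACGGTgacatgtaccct
Kcna4 (chr2:107136640-107136678, plus strand): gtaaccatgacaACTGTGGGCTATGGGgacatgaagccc
Kcnk2 (chr1:191080448-191080486, minus strand): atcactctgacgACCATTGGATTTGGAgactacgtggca
Kcnt1 (chr2:25749875-25749913, plus strand): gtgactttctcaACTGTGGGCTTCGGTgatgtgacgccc
Kcnma1 (chr14:24347623-24347661, minus strand): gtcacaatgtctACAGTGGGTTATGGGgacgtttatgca
In the *Kcnh* genes the filter opened with a serine codon in 6 of the 7 records that held it and had phenylalanine between its glycines in 7 of 7, whereas over all 61 filters found in members threonine opened 51 and tyrosine stood between the glycines in 41. Of the *Kcnh8* records only the one on the plus strand held the filter. Members of both kinds, higher in GFP+ cells and higher in GFP- cells, thus carried the same motif, and it was not used to sort them.

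Counts on genes ranged from 17769024 to 67695039 per library, and 43 to 59 of the 64 members reached 1 CPM in a library. All 8 listed supporting cell markers, among them *Sox2*, *Prox1* and *Lfng*, were higher in every GFP+ library than in every GFP- library of the same age, with a summed level of 8657 and 9175 CPM against 239 and 373 CPM at P1 and of 5800 to 7818 CPM against 293 to 329 CPM at P6. Of 9 hair cell markers found, 7 were also higher in both GFP+ libraries at each age, a pattern that 34.5% of all genes showed at P1 and 35.7% at P6, with a summed level of 713 and 821 CPM against 401 and 464 CPM at P1 and of 449 and 521 CPM against 342 and 384 CPM at P6, and *Otof*, a synaptic protein of inner hair cells, stood at 151 and 191 CPM against 16.6 and 18.2 CPM at P1. P6 GFP+ replicate 2 stood apart from replicate 1: it held fewer supporting cell marker counts (5800 against 7818 CPM) and more of Schwann cell and glial markers (2105 against 1029 CPM), vessel and pericyte markers (443 against 144 CPM), macrophage markers (65.4 against 28.9 CPM) and fibrocyte markers (10190 against 5475 CPM). Among the members, 51 of 64 were higher in replicate 2 than in replicate 1 of that group, with a median log2 ratio of 0.46 compared with 0.07 over 16346 genes. P1 GFP- replicate 2 held 675 CPM of neuronal markers against 281 CPM in replicate 1. Results that rest on these libraries are given with and without them.

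**Figure D1:**
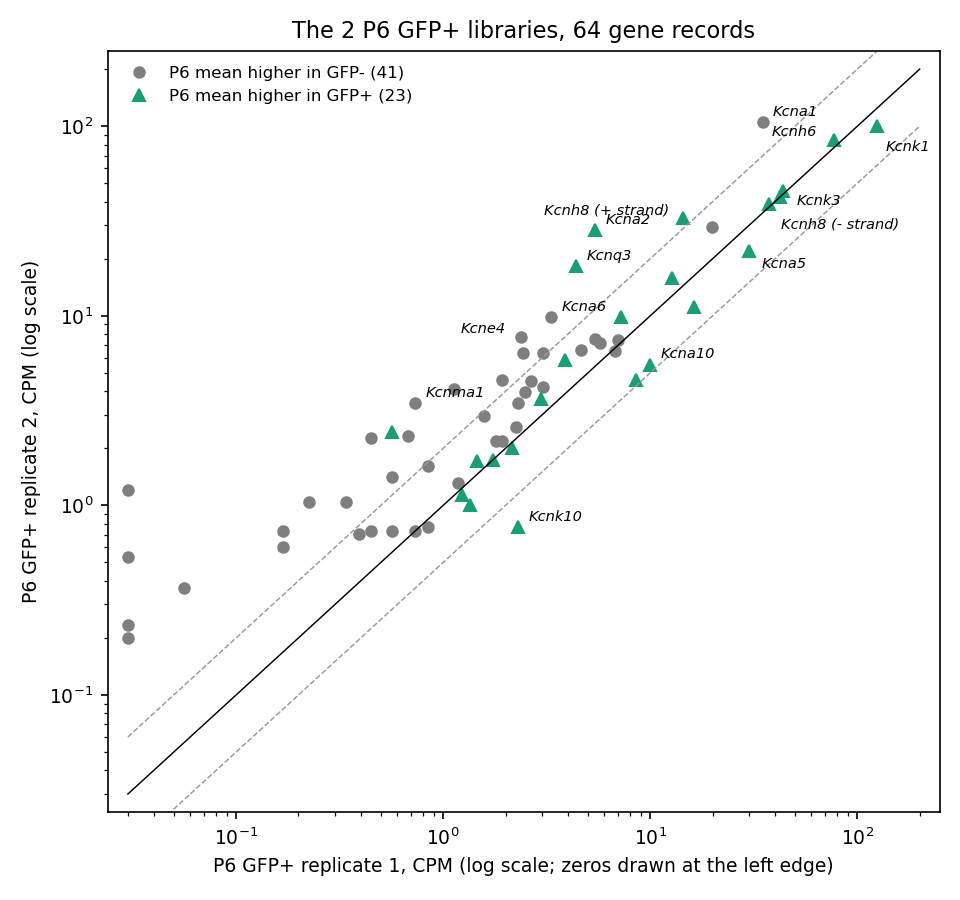
Level of each of the 64 gene records in the 2 P6 GFP+ libraries (CPM, log axes), with the solid line at equal levels and dashed lines at ratios of 2 and 0.5. Most points lie above the solid line, among them *Kcna1*, *Kcna2* and *Kcnq3*, while *Kcnh6* and *Kcnk3* lie close to it.

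The members together took 770 and 822 CPM of the P1 GFP+ libraries, 556 and 690 CPM of the P1 GFP- libraries, 576 and 737 CPM of the P6 GFP+ libraries and 578 and 592 CPM of the P6 GFP- libraries. Voltage-gated pore subunits made up most of it, with 624 and 655 CPM in P1 GFP+ cells against 328 and 416 CPM in P1 GFP- cells, and the P6 GFP+ libraries (320 and 477 CPM) overlapped with the P6 GFP- libraries (324 and 345 CPM). *Kcnh6* alone took 38.3% and 38.8% of all member counts in the P1 GFP+ libraries and 11.5% to 13.4% in the P6 GFP+ libraries. Tandem-pore subunits stood in GFP+ cells at 72.6 and 81.6 CPM at P1 and 159 and 176 CPM at P6, compared with 61.7 and 66.8 CPM and with 70.3 and 81.0 CPM in GFP- cells. Auxiliary subunits (24.7 and 26.6 CPM in P1 GFP+ cells, 70.1 and 78.8 CPM in P1 GFP- cells) and calcium- or sodium-activated channels (19.7 and 23.1 CPM against 57.6 and 83.8 CPM) stood below GFP- cells in both P1 GFP+ libraries, and the same held at P6. The class sums were not tested.

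**Figure D2:**
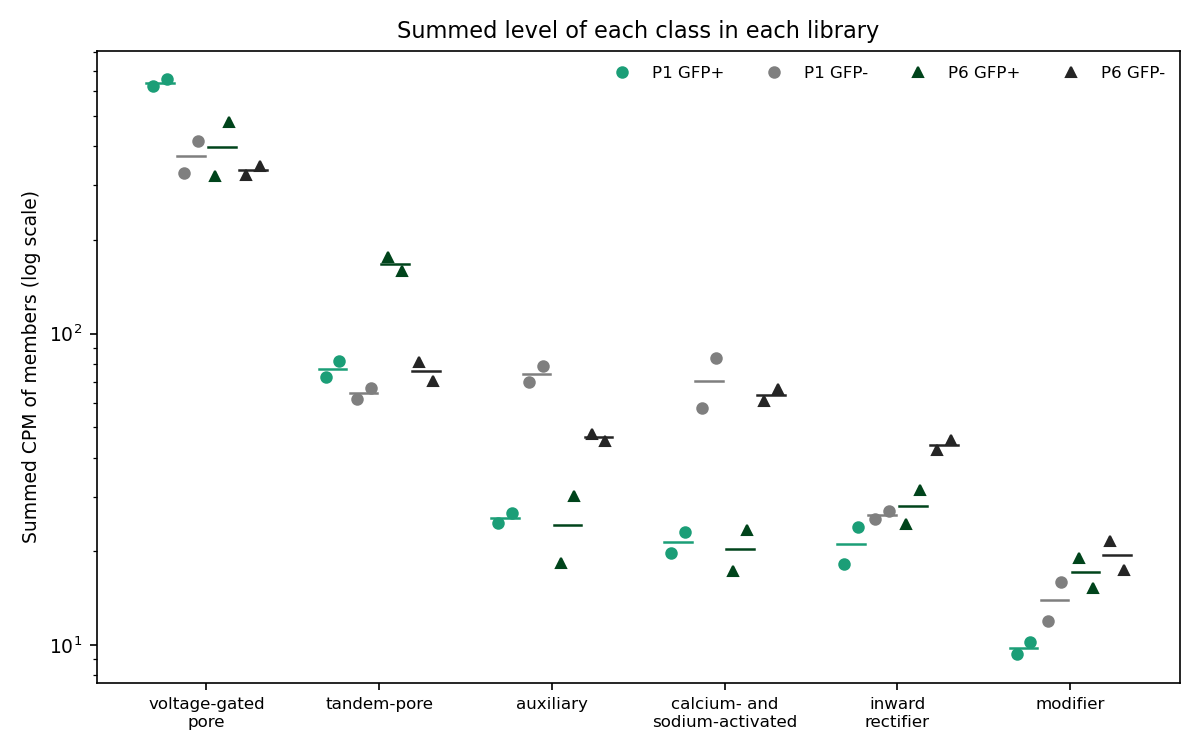
Summed CPM of the members of 6 classes in each library (log axis), with a point per library and a bar at the mean of the 2 replicates. The voltage-gated sum is highest in P1 GFP+ cells (624 and 655 CPM) and the tandem-pore sum in P6 GFP+ cells (159 and 176 CPM).

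To compare genes with each other, CPM was divided by the exon length in kilobases (CPM per kb), and means are given with the SD over 2 replicates. In P1 GFP+ cells *Kcnh6* stood first with 83.6 ± 4.64 CPM per kb, and the leading members also included *Kcnk1* (26.6 ± 2.17), *Kcnh8* on the minus strand (24.4 ± 0.803) and *Kcnh8* on the plus strand (15.2 ± 0.0120). In P6 GFP+ cells *Kcnk1* stood first with 48.7 ± 7.41 CPM per kb, before *Kcnh8* on the minus strand (23.7 ± 0.6502), *Kcnh6* (22.1 ± 1.47), *Kcnh8* on the plus strand (11.8 ± 6.45) and *Kcnk3* (11.1 ± 0.00695). In P1 GFP- cells the leading members were *Kcna6* (10.4 ± 2.37 CPM per kb), *Kcnk2* (9.10 ± 2.46), *Kcnk1* (6.97 ± 3.18), *Kcna1* (6.24 ± 0.645) and *Kcnd3* (5.68 ± 0.604), and in P6 GFP- cells they were *Kcna1* (14.8 ± 0.688), *Kcnk1* (11.8 ± 2.87), *Kcnj13* (9.42 ± 1.42), *Kcnj8* (6.49 ± 0.737) and *Kcna6* (6.41 ± 0.503). Neighbours in these orders often differed by less than their spread: *Kcnk1* and *Kcnh8* on the minus strand did not overlap at P1, but the *Kcnh8* plus-strand record at P6 ranged over *Kcnk3*. Levels of *Kcnj13*, *Kcna6* and *Kcnj3* are uncertain, since 49.1%, 39.5% and 31.1% of their exon length is shared with a gene on the opposite strand and the library kit does not mark strand.

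The first question is which potassium channel genes distinguish the GFP+ fraction from the GFP- fraction at P1. *Kcnh6*, the *Kcnh8* records, *Kcna5*, *Kcna10*, *Kcnk3* and *Kcnk1* were higher in GFP+ cells, while a longer list that included *Kcnk2*, *Kcnd3*, *Kcnt1*, *Kcnc1*, *Kcna1* and *Kcna6* was lower. Of the 64 members, 15 were higher and 34 lower in GFP+ cells at an adjusted p below 0.05 (edgeR quasi-likelihood test with Benjamini-Hochberg adjustment), where 53.6% of 18682 genes were called, 25.5% as higher and 28.1% as lower. The median log2 ratio of GFP+ to GFP- cells was -1.20 over the members and 0.01 over all genes tested. With the study's criteria (p and adjusted p below 0.01 and a fold above 4), 8 members were higher and 23 lower, where 6.46% and 11.4% of all genes were (17.8% together). The voltage-gated pore subunits were split, with 10 higher and 12 lower of 27. Of the other classes, 0 of 7 auxiliary subunits were higher and 6 lower, and the counts of higher and lower were 1 and 6 of 9 calcium- or sodium-activated members, 1 and 4 of 8 inward rectifiers, 2 and 4 of 7 tandem-pore subunits, and 1 and 2 of 5 modifiers. Of the 49 calls, 39 held whichever of the 4 libraries was left out. Without the 13 members that reached the floor in 1 group or 1 fraction only, 13 of 51 were higher and 26 lower. Under the study's criteria 15 members were lower without P1 GFP+ replicate 2.

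At P6 the members higher in GFP+ cells were nearly those of P1, headed by *Kcna5* and *Kcna10*, which reached the floor in GFP+ cells only. Fewer members were lower than at P1. In all, 12 members were higher and 21 lower, and 31 did not pass the test, where 33.5% of 18294 genes were called, 15.5% as higher and 17.9% as lower. The median log2 ratio was -0.88 over the members and -0.02 over all genes. The study's criteria left 7 higher and 5 lower members, where 4.88% and 3.1% of all genes passed (7.98% together). Under these criteria the counts were 9 higher and 25 lower without P6 GFP+ replicate 2, 3 and 0 without P6 GFP- replicate 1, and 0 and 0 without P6 GFP- replicate 2. By class, 7 voltage-gated pore subunits were higher and 6 lower, 3 tandem-pore subunits were higher and 1 lower, 1 modifier was higher and 4 lower, 1 calcium- or sodium-activated member was higher and 6 lower, and 0 auxiliary subunits and 0 inward rectifiers were higher while 2 of each were lower. Without P6 GFP+ replicate 2, the test called 12 members higher and 36 lower, where 51.1% of 19183 genes were called, and the 33 calls made with it were all among them. Of those 33 calls, 15 were lost without P6 GFP- replicate 1 and 18 without P6 GFP- replicate 2, where 13% and 10.8% of all genes were called, and 13 held whichever library was left out. Without the 13 members that reached the floor in 1 group or 1 fraction only, 10 of 51 were higher and 16 lower.

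Across both ages, 10 members were higher in GFP+ cells at P1 and P6 and 18 were lower at both, and 0 went in opposite directions, where 12.5% of the 17819 genes tested at both ages were higher at both, 15.4% lower at both and 0.707% opposite. A further 5 were called higher and 16 lower at P1 only (12.6% and 12.9% of all genes), 2 were called higher and 3 lower at P6 only (2.68% and 2.14%), and 10 were called at neither age. A call at 1 age alone does not show a difference between ages, which was tested as the interaction given further on.

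**Figure D3:**
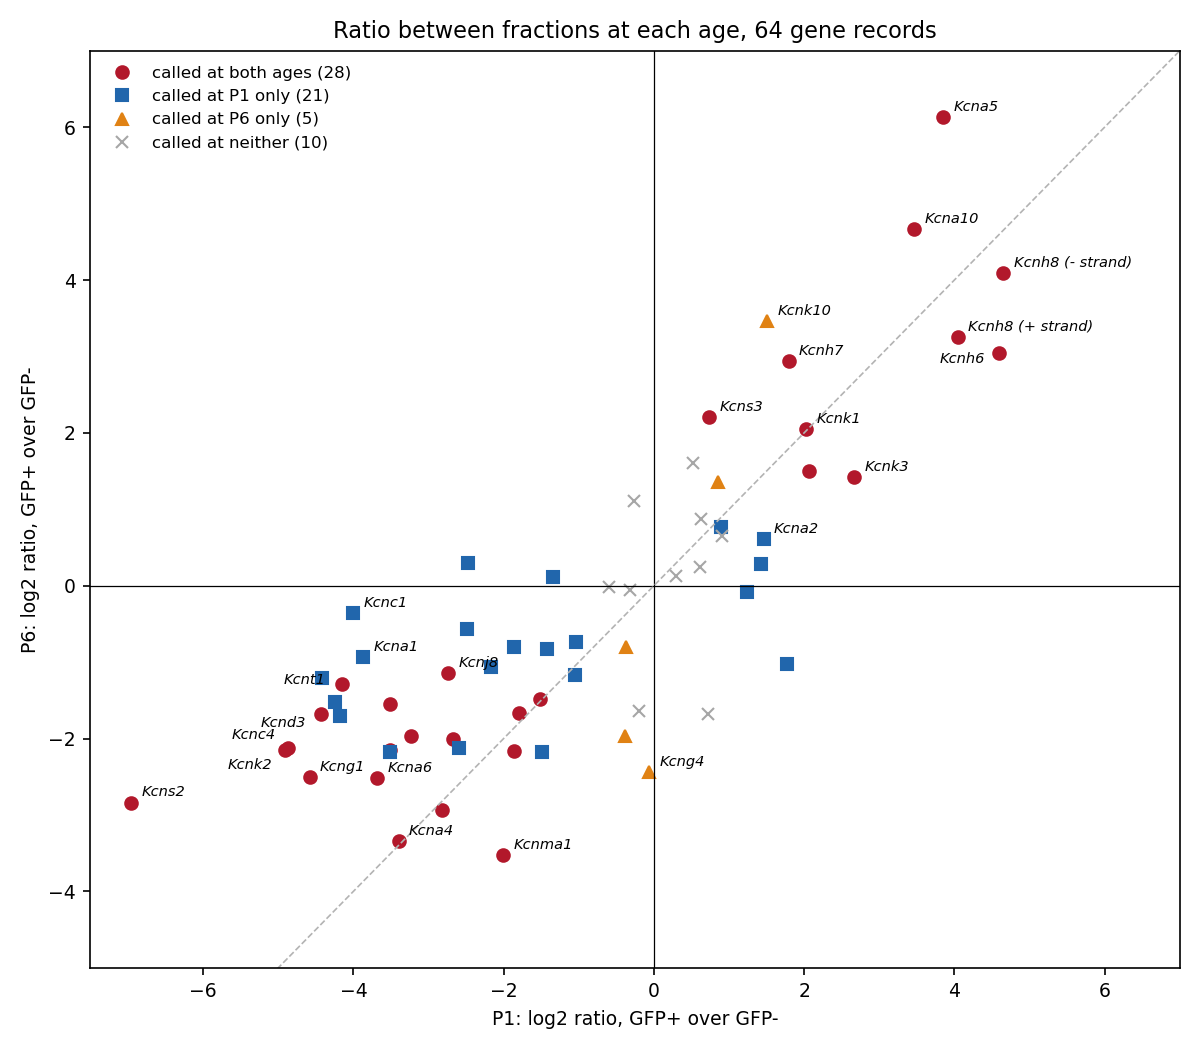
Log2 ratio of GFP+ to GFP- cells at P1 (x axis) and P6 (y axis) for the 64 gene records, from edgeR, with symbols for the ages at which the ratio passed an adjusted p of 0.05. The upper right holds 10 records called higher at both ages and the lower left 18 called lower at both, and the dashed line marks equal ratios.

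Among the voltage-gated pore subunits, *Kcnh6* (chromosome 11) had the highest CPM of any member in P1 GFP+ cells. It encodes a subunit of the ether-à-go-go-related (ERG) type, whose channels inactivate fast on depolarization and pass current on repolarization. *Kcnh6* stood at 295 and 319 CPM in the P1 GFP+ libraries against 12.2 and 14.9 CPM in the P1 GFP- libraries, and at 77.1 and 84.7 CPM against 9.45 and 10.0 CPM at P6. The libraries of the 4 groups did not overlap between fractions at either age. The log2 ratio of GFP+ to GFP- cells was 4.60 ± 0.13 (SE, adjusted p = 1.02e-05) at P1 and 3.05 ± 0.16 (adjusted p = 6.73e-04) at P6, and both calls held without any 1 library.

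The records named *Kcnh8*, which encodes a channel of the related ELK type, lie next to each other on chromosome 17 and gave like values. The minus-strand record stood at 40.2 and 38.4 CPM in P1 GFP+ cells against 1.43 and 1.89 CPM, and at 37.4 and 38.9 CPM in P6 GFP+ cells against 2.27 and 2.19 CPM, with log2 ratios of 4.65 ± 0.18 (adjusted p = 1.75e-05) and 4.09 ± 0.19 (adjusted p = 6.45e-04). The plus-strand *Kcnh8* record stood at 30.2 CPM in both P1 GFP+ libraries against 1.74 and 2.16 CPM, but at 14.5 and 32.6 CPM in the P6 GFP+ libraries against 2.55 and 2.33 CPM, with log2 ratios of 4.05 ± 0.17 at P1 and 3.26 ± 0.42 at P6, or 2.59 at P6 without P6 GFP+ replicate 2. As annotated, the 2 *Kcnh8* records lie on opposite strands and share no bases. Both were counted as voltage-gated pore subunits by symbol, although the minus-strand record held no filter. Whether their reads came from 1 transcript was not tested. *Kcnh7*, another ERG-type subunit, was higher in GFP+ cells at lower levels, at 12.6 and 13.4 CPM against 2.59 and 5.39 CPM at P1 (log2 ratio 1.79 ± 0.34) and at 8.55 and 4.59 CPM against 1.15 and 0.55 CPM at P6 (log2 ratio 2.94 ± 0.53). Its P6 call was lost without P6 GFP- replicate 2 (log2 ratio 2.49) and its ratio was 3.63 without replicate 1, and its P1 ratio was 2.42 without P1 GFP- replicate 2. *Kcnh2*, the ERG subunit of the heart, was not called at either age, at 35.5 and 39.2 CPM against 18.3 and 34.1 CPM at P1 and at 12.7 and 15.9 CPM against 13.0 and 11.1 CPM at P6. The other *Kcnh* members were at most 5.36 CPM in any library, and *Kcnh5* was lower in GFP+ cells at P1 (log2 ratio -3.51), a call that was lost without P1 GFP+ replicate 2 (-3.24), and *Kcnh5* was at -2.27 without P1 GFP- replicate 2 and -4.16 without replicate 1. *Kcnh1*, which reached the floor of the rule in P1 GFP- cells only, stood at 0.55 and 0.48 CPM in P1 GFP+ cells against 1.61 and 1.55 CPM. *Kcnh3* was not called.

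*Kcna5* and *Kcna10*, both *Shaker*-type subunits, had the highest ratios of GFP+ to GFP- cells among the members at P6. Both reached the floor of the rule in GFP+ cells only, so the rule itself favoured this difference. *Kcna5* stood at 3.73 and 4.30 CPM in P1 GFP+ cells against 0.18 and 0.38 CPM, and at 29.9 and 21.9 CPM in P6 GFP+ cells against 0.438 and 0.295 CPM. Its log2 ratio was 3.85 ± 0.38 (adjusted p = 4.33e-04) at P1 and 6.13 ± 0.35 (adjusted p = 7.51e-04) at P6, and both calls held without any 1 library, although the P1 ratio was 4.50 without P1 GFP- replicate 2. *Kcna10* is known from hair cells of the inner ear. It stood at 3.27 and 4.02 CPM against 0.21 and 0.46 CPM at P1 and at 10.0 and 5.52 CPM against 0.29 and 0.31 CPM at P6, with log2 ratios of 3.46 ± 0.40 (adjusted p = 8.17e-04) and 4.67 ± 0.45 (adjusted p = 0.00215), and with a P1 ratio of 4.16 without P1 GFP- replicate 2.

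Between the fractions, markers of hair cells went the same way as *Kcna10*, as 7 of 9 were higher in both GFP+ libraries at each age. *Otof* stood at 114 and 118 CPM in P6 GFP+ cells against 12.5 and 22.0 CPM. With age in GFP+ cells the list was mixed. Of the 9 markers, 1 stood higher and 4 lower in both P6 libraries than in both P1 libraries, where 29.3% and 41.1% of all genes did. The higher one was *Tmc1*, from 4.997 and 4.82 CPM to 19.92 and 14.03 CPM. The sum of the list went from 713 and 821 CPM to 449 and 521 CPM. Most of it was *Myo6*, at 442 and 476 CPM in P1 GFP+ cells and 406 and 348 CPM in P1 GFP- cells. *Kcna10* was lower in P6 GFP+ replicate 2 than in replicate 1. So were *Tmc1*, *Chrna9*, *Chrna10* and *Pou4f3*, whereas 5 markers were higher. For *Kcna10* both P6 GFP+ libraries stood above both P1 GFP+ libraries, a change that was not called. The part of hair cell RNA in the level of *Kcna10* was not tested. *Kcnq3* and *Kcnq5*, which form slowly activating channels, were not called in either comparison of fractions.

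*Kcna2*, a subunit of myelinated axons, stood at 33.5 and 35.2 CPM in P1 GFP+ cells against 15.7 and 11.2 CPM in P1 GFP- cells (log2 ratio 1.46 ± 0.18), a call that was lost with all 8 libraries in the fit. At P6 *Kcna2* spread from 5.40 CPM in GFP+ replicate 1 to 28.3 CPM in replicate 2, which spanned both GFP- libraries (8.71 and 13.4 CPM).

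Other voltage-gated subunits were higher in GFP- cells. *Kcnd3*, a subunit of the fast transient (A-type) current, stood at 2.53 and 2.09 CPM in P1 GFP+ cells against 58.6 and 50.4 CPM, and at 5.40 and 7.50 CPM against 19.5 and 21.8 CPM at P6. Its log2 ratio of GFP+ to GFP- cells was -4.43 ± 0.17 (adjusted p = 1.77e-05) at P1 and -1.68 ± 0.23 (adjusted p = 0.00583) at P6, the latter call being lost without P6 GFP- replicate 2 (-1.62). *Kcnd1*, of the same family, was lower at both ages, with log2 ratios of -1.86 ± 0.17 at P1 and -2.17 ± 0.41 at P6, where the call was lost without P6 GFP- replicate 2 (-2.08) and the ratio was -2.93 without P6 GFP+ replicate 2. Dipeptidyl peptidase-like proteins that join these channels were lower too, as given with the partners further on.

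*Kcna1*, which sits beside the nodes of myelinated axons, stood at 4.36 and 2.53 CPM in P1 GFP+ cells against 60.1 and 51.9 CPM, a log2 ratio of -3.87 ± 0.27 (adjusted p = 1.07e-04). At P6 it stood at 34.9 CPM in GFP+ replicate 1 and 106 CPM in replicate 2 against 128 and 137 CPM, and the ratio of -0.93 ± 0.47 did not pass the test (adjusted p = 0.185). *Kcna6*, a related subunit, was at 4.89 and 3.98 CPM against 52.0 and 71.9 CPM at P1 and at 3.32 and 9.88 CPM against 40.1 and 35.9 CPM at P6, with log2 ratios of -3.68 ± 0.21 and -2.52 ± 0.47. The P6 ratio of *Kcna6* was -3.50 without P6 GFP+ replicate 2 and -1.92 without replicate 1. *Kcna4* was at 0.39 and 0.20 CPM against 2.96 and 4.25 CPM at P1 and at 0.84 and 1.61 CPM against 13.2 and 12.2 CPM at P6, with log2 ratios of -3.40 ± 0.41 and -3.34 ± 0.36, and its P1 ratio was -4.07 without P1 GFP+ replicate 1.

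*Kcnc1*, a fast-deactivating subunit of the *Shaw* type, stood at 0.70 and 0.52 CPM in P1 GFP+ cells against 5.67 and 15.9 CPM, and so differed between the P1 GFP- replicates. Neuronal markers moved with it, as 8 of 9 were lower in both P1 GFP+ libraries, where 44.9% of all genes were, and their sum was 281 CPM in P1 GFP- replicate 1 and 675 CPM in replicate 2, and the part of neuronal RNA was not tested. The P1 log2 ratio of *Kcnc1* was -3.998 ± 0.58, and -3.07 without P1 GFP- replicate 2, still past the test. At P6 it did not pass the test, at 2.48 and 3.98 CPM against 4.59 and 3.74 CPM. *Kcnc4* was lower at both ages (log2 ratios -4.86 ± 0.47 and -2.12 ± 0.39), from 0.13 and 0.16 CPM against 3.27 and 5.80 CPM at P1 and 0.45 and 0.74 CPM against 2.45 and 2.84 CPM at P6, and its P6 call was lost without either P6 GFP- library (-2.17 without replicate 1 and -2.04 without replicate 2).

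Of the modifiers, *Kcns3* was the member higher in GFP+ cells. It stood at 5.80 and 6.39 CPM against 3.85 and 3.98 CPM at P1 and at 16.3 and 11.1 CPM against 2.95 and 2.94 CPM at P6, with log2 ratios of 0.74 ± 0.19 (adjusted p = 0.0193) and 2.21 ± 0.29 (adjusted p = 0.00522). The P1 call was lost without either P1 GFP+ library (0.79 without replicate 1 and 0.71 without replicate 2). *Kcns2* had 1 count and 0 counts in the P1 GFP+ libraries, while it stood at 1.85 and 2.65 CPM in P1 GFP- cells. *Kcng1* was lower at both ages, at 0.07 and 0.20 CPM against 3.33 and 2.85 CPM at P1 and 0.34 and 1.04 CPM against 3.94 and 4.28 CPM at P6. Its log2 ratio was -4.58 ± 0.48 at P1, from -3.84 without P1 GFP+ replicate 1 to -5.37 without replicate 2, and -2.51 at P6, where it was -3.58 without P6 GFP+ replicate 2 and the call was lost without either P6 GFP- library (-2.53 and -2.49). *Kcng4* and *Kcns1* were called lower at P6 only, and *Kcng4* stood at 0.56 and 0.74 CPM in P6 GFP+ cells against 3.96 and 3.16 CPM (log2 ratio -2.44 ± 0.36), a call lost without P6 GFP- replicate 1 (-2.21), as was that of *Kcns1* (-1.97, and -1.52 without it).

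Auxiliary subunits were lower in GFP+ cells in 6 of 7 cases at P1 and in 2 of 7 at P6. *Kcnab1*, a cytoplasmic beta subunit of *Kcna* channels, stood at 1.35 and 1.77 CPM in P1 GFP+ cells against 20.7 and 16.9 CPM, and at 1.58 and 2.95 CPM against 6.60 and 6.69 CPM at P6, with log2 ratios of -3.51 ± 0.22 (adjusted p = 7.35e-05) and -1.54 ± 0.36 (adjusted p = 0.0239). The P6 call for *Kcnab1* was lost without either P6 GFP- library (-1.50 and -1.56). *Kcnab3* was lower at both ages too (log2 ratios -2.68 ± 0.20 and -2.005 ± 0.26), and *Kcnab2* at P1 (-1.42 ± 0.31). The P6 call of *Kcnab3* was lost without P6 GFP- replicate 2 (-1.92) and the P1 call of *Kcnab2* without P1 GFP+ replicate 1 (-1.29). *Kcne4*, which damps *Kcna* and *Kcnq* currents, had 2 and 8 counts in the P1 GFP+ libraries (0.04 and 0.32 CPM) against 2.88 and 4.10 CPM in P1 GFP- cells, a log2 ratio of -4.41 ± 0.66 that was -3.35 without P1 GFP+ replicate 1 and -6.11 without replicate 2. Of the calcium-binding partners of *Kcnd* channels, *Kcnip2* and *Kcnip3* were lower at P1, and *Kcnip4* did not pass the test at P1 (a mean of 12.3 CPM against 11.5 and 10.1 CPM) or P6 (3.88 and 5.83 CPM against 3.68 and 5.21 CPM).

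Among the calcium- and sodium-activated channels, *Kcnt1*, the sodium-activated channel, stood at 1.396 and 2.01 CPM in P1 GFP+ cells against 25.2 and 38.1 CPM and at 3.04 and 4.18 CPM against 8.09 and 9.62 CPM at P6. Its log2 ratio was -4.15 ± 0.28 (adjusted p = 1.04e-04) at P1 and -1.29 ± 0.28 (adjusted p = 0.0195) at P6, and the P6 call was lost without either P6 GFP- library (-1.36 and -1.18). *Kcnma1*, the large-conductance channel of mature inner hair cells and of smooth muscle and neurons, stood at 1.77 and 1.41 CPM against 4.09 and 9.75 CPM at P1 and at 0.73 and 3.45 CPM against 23.6 and 26.3 CPM at P6. Its log2 ratio was -2.01 ± 0.45 at P1, lost without P1 GFP+ replicate 2 (-1.83) and at -1.24 without P1 GFP- replicate 2, and -3.52 ± 0.60 at P6, with -5.07 without P6 GFP+ replicate 2 and -2.83 without replicate 1. *Kcnn2*, the small-conductance channel of the efferent synapse on outer hair cells, did not pass the test at P1 (3.88 and 4.98 CPM against 6.10 and 6.13 CPM) and was lower at P6 (6.75 and 6.50 CPM against 11.4 and 11.7 CPM, log2 ratio -0.81 ± 0.22), a call lost without either P6 GFP- library (-0.77 and -0.80).

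*Kcnn3* was lower at both ages, at 0.68 and 0.48 CPM against 4.59 and 4.48 CPM at P1 and 0.23 and 1.04 CPM against 4.85 and 5.51 CPM at P6. Its log2 ratios were -2.82 ± 0.29 and -2.94 ± 0.58, the latter ranging from -4.49 without P6 GFP+ replicate 2 to -2.29 without replicate 1 and losing its call without either P6 GFP- library (-3.003 and -2.89). *Kcnn1* was lower at both ages (log2 ratios -1.51 and -1.49), its P6 call being lost without either P6 GFP- library (-1.42 and -1.52), and *Kcnn4* was lower at P1. *Kcnmb2*, a beta subunit of the large-conductance channel, was the calcium-activated member called higher in GFP+ cells at P6, at 1.74 CPM in both GFP+ libraries against 0.681 and 0.665 CPM (log2 ratio 1.36 ± 0.34), a call lost without either P6 GFP- library (1.44 and 1.33) and with all 8 libraries in the fit, and *Kcnu1* was called higher at P1 (0.89), a call lost without either P1 GFP+ library (0.88 and 0.92).

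Of the inward rectifiers, *Kcnj2*, which sets the resting potential of many excitable cells and of hair cells, was the member higher in GFP+ cells. It stood at 8.82 and 12.3 CPM against 4.09 and 4.29 CPM at P1 (log2 ratio 1.43 ± 0.21, adjusted p = 0.00222), and at P6 the fractions did not pass the test (7.20 and 9.84 CPM against 7.72 and 6.19 CPM). *Kcnj8*, the pore of the ATP-sensitive channel of pericytes and vascular muscle, stood at 1.33 and 1.00 CPM against 8.50 and 8.65 CPM at P1 and at 5.74 and 7.16 CPM against 13.1 and 15.3 CPM at P6. Its log2 ratios were -2.74 ± 0.24 (adjusted p = 2.80e-04) and -1.14 ± 0.23 (adjusted p = 0.0162), the latter lost without either P6 GFP- library (-1.19 and -1.04). *Kcnj13*, a rectifier of transporting epithelia, was at 2.53 and 3.33 CPM against 8.18 and 4.66 CPM at P1 (log2 ratio -1.03 ± 0.33), a call lost without either P1 GFP+ library (-0.86 and -1.20). *Kcnj3* was lower at both ages (log2 ratios -3.24 and -1.96), with a P1 ratio of -2.59 without P1 GFP- replicate 2 and a P6 call lost without P6 GFP- replicate 1 (-1.91) or replicate 2. *Kcnj12* was lower at P1 (-2.47), a call lost without either P1 GFP+ library (-2.77 and -2.28) and at -1.69 without P1 GFP- replicate 2, whereas *Kcnj11*, *Kcnj14* and *Kcnj15* were not called in a comparison of fractions.

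The tandem-pore subunits were led by *Kcnk1*, a weak background channel, which stood at 57.7 and 64.8 CPM in P1 GFP+ cells against 10.9 and 21.2 CPM and at 124 and 100.1 CPM against 31.7 and 22.4 CPM at P6. Its log2 ratio was 2.03 ± 0.29 (adjusted p = 0.00208) at P1 and 2.05 ± 0.24 (adjusted p = 0.00381) at P6, and both calls held without any 1 library. *Kcnk3*, an acid-sensitive background channel, stood at 8.68 and 10.3 CPM against 1.45 and 1.74 CPM at P1 and at 42.5 CPM in both GFP+ libraries against 16.1 and 15.6 CPM at P6, with log2 ratios of 2.66 ± 0.22 (adjusted p = 2.00e-04) and 1.42 ± 0.16 (adjusted p = 0.00308). *Kcnk2*, a background channel opened by stretch, went the other way, at 0.85 and 1.25 CPM against 39.2 and 26.6 CPM at P1 and 2.65 and 4.55 CPM against 16.7 and 15.5 CPM at P6. Its log2 ratios were -4.91 ± 0.29 (adjusted p = 6.51e-05) and -2.15 ± 0.31 (adjusted p = 0.00624). *Kcnk6* and *Kcnk5* were lower in GFP+ cells at P1 (log2 ratios -2.16 and -1.05). The call of *Kcnk5* was lost without P1 GFP+ replicate 1 (-1.02), P1 GFP+ replicate 2 (-1.06) or P1 GFP- replicate 2 (-0.56), and with all 8 libraries in the fit. *Kcnk9*, which reached the floor of the rule in P1 GFP- cells only, stood at 0.17 and 0.08 CPM in P1 GFP+ cells against 1.35 and 4.12 CPM. *Kcnk10*, a relative of *Kcnk2*, was called higher at P6 at a level of 2.31 and 0.77 CPM against 0.21 and 0.06 CPM (log2 ratio 3.46), a call lost without P6 GFP- replicate 2 (2.80) and at 4.66 without replicate 1, 2.53 without P6 GFP+ replicate 1 and 4.11 without P6 GFP+ replicate 2.

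**Figure D4:**
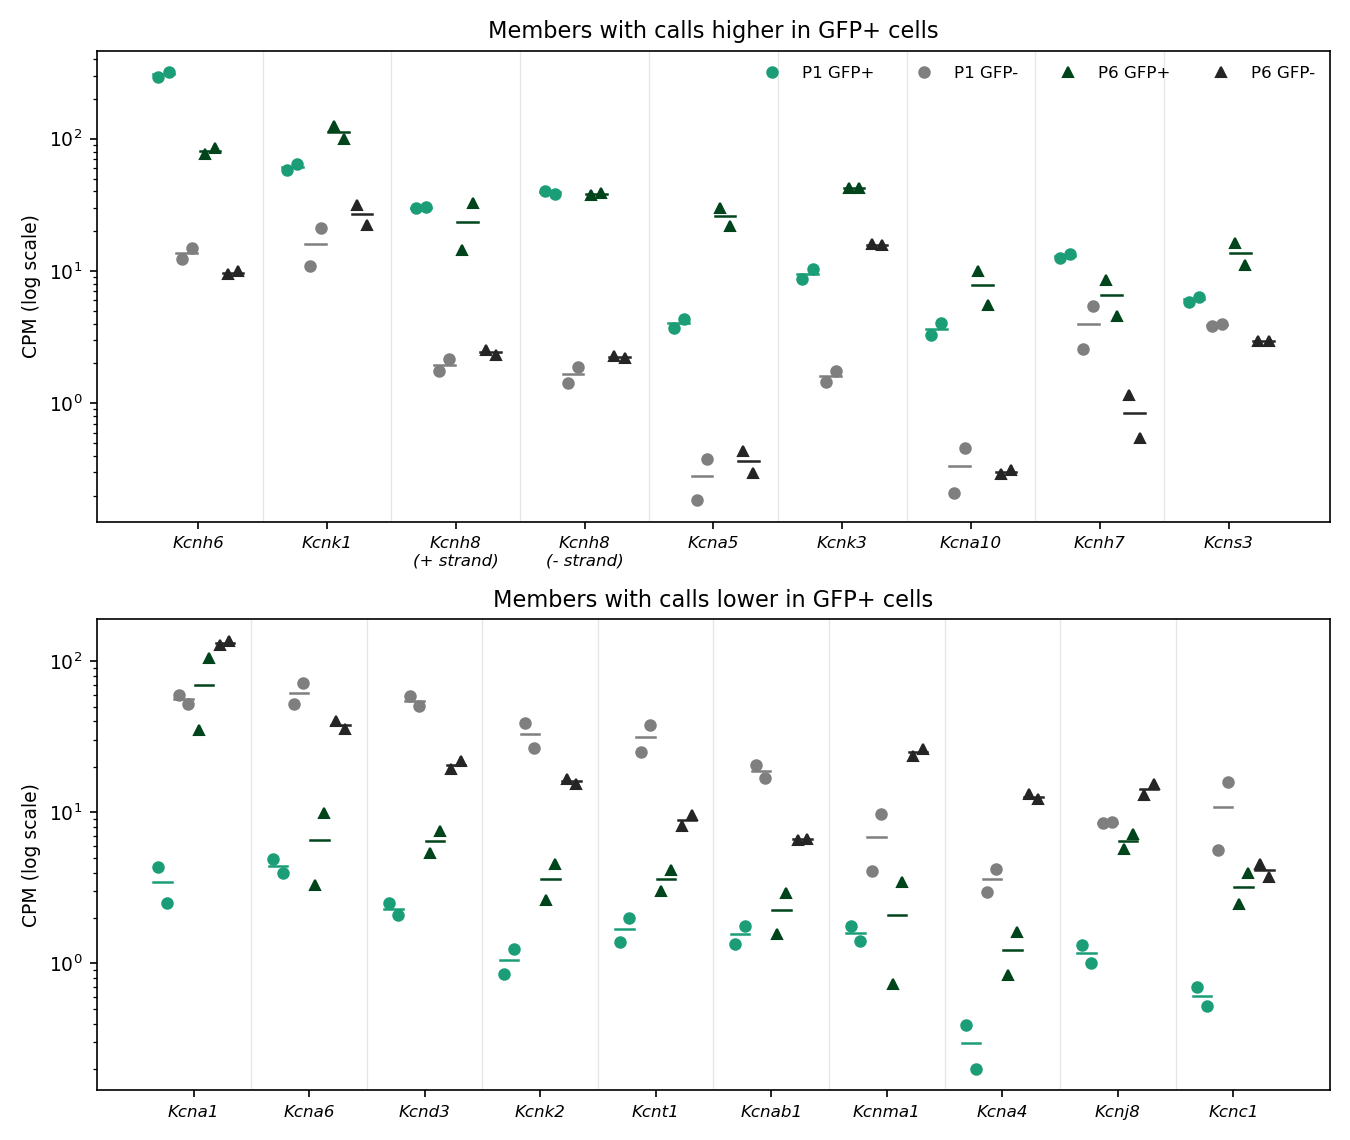
CPM of the members described most closely (log axis), with a point per library and a bar at the mean of the 2 replicates of each group. In the upper panel P1 GFP+ libraries lie above P1 GFP- libraries throughout, with *Kcnh6* at 295 and 319 CPM, and in the lower panel they lie below them throughout.

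The next question is how these genes changed in the GFP+ fraction over the first postnatal week. In GFP+ cells *Kcnh6*, *Kcnh2*, *Kcnip4* and *Kcnmb2* were among the members that fell from P1 to P6, and 14 members rose, among them *Kcna5*, *Kcnk3*, *Kcna1*, *Kcne4*, *Kcnj8*, *Kcnk1* and *Kcnd3*. Of the 64 members, 58 were tested, and of these 14 rose, 6 fell and 38 did not pass the test, where 20.4% of 17213 genes were called, 12.1% as higher at P6 and 8.31% as lower. *Kcnd2*, *Kcng1*, *Kcnh5*, *Kcnk9*, *Kcns2* and *Kcnt2* had too few counts in GFP+ cells to be tested. The median log2 change was 0.25 over the members tested and -0.00 over all genes. Tandem-pore subunits rose in 4 and fell in 0 of 6 tested, inward rectifiers rose in 3 and fell in 0 of 8, voltage-gated subunits rose in 5 and fell in 4 of 25, and 1 modifier and 1 auxiliary subunit rose while 1 auxiliary subunit and 1 calcium-activated member fell. With the study's criteria 3 members rose and 0 fell, where 1.63% and 0.93% of all genes did (2.56% together). Under these criteria 0 rose without P1 GFP+ replicate 2, 13 rose and 1 fell without P6 GFP+ replicate 1, 8 rose and 3 fell without P6 GFP+ replicate 2, and 7 rose and 1 fell with DESeq2. Without P6 GFP+ replicate 2 the counts were 17 higher and 19 lower, where 54.5% of 17415 genes were called, and of the 20 calls made with it only *Kcnc4* was lost (log2 change 1.75, against 2.14 with it). Without P1 GFP+ replicate 1 and replicate 2, 10 and 14 of the 20 calls were lost, where 8.59% and 3.76% of all genes were called.

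*Kcnh6* fell by 1.83 on the log2 scale (SE 0.12, adjusted p = 0.00273) between the P1 and P6 GFP+ libraries and did not change past the test in GFP- cells (log2 change -0.29 ± 0.17). *Kcna5* rose by 2.79 (SE 0.25, adjusted p = 0.00407) and *Kcnk3* by 2.26 (SE 0.16, adjusted p = 0.00273). The calls for *Kcnh6*, *Kcna5*, *Kcnk3*, *Kcna1* and *Kcne4* held without any 1 library. *Kcnk1* rose by 0.97 (SE 0.16) in GFP+ cells, a call lost without P1 GFP+ replicate 1 (0.92) or replicate 2 (1.03) and with all 8 libraries in the fit. *Kcns3* rose by 1.26 (SE 0.27) and was likewise lost without either P1 GFP+ library (1.23 and 1.31), and *Kcnh2* fell by 1.29 (SE 0.16) and was lost without P1 GFP+ replicate 2 (-1.25).

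Some of the members that rose in GFP+ cells were those that differed most between the P6 GFP+ replicates. *Kcna1* rose by 4.40 (SE 0.62, adjusted p = 0.0119) from 4.36 and 2.53 CPM at P1 to 34.9 and 106 CPM at P6, and by 3.40 without P6 GFP+ replicate 2. Schwann cell and glial markers moved with it, as 7 of 7 stood higher in both P6 GFP+ libraries than in both P1 GFP+ libraries, where 29.3% of all genes did, and their sum went from 413 and 362 CPM to 1029 and 2105 CPM. Among the 7, *Sox10* was higher in GFP+ than in GFP- cells at P1 (275 and 286 against 95.9 and 148 CPM). The neuronal list was mixed, as 5 of 9 markers stood higher and 2 lower in both P6 GFP+ libraries, where 29.3% and 41.1% of all genes did. *Kcne4* rose by 5.09 (SE 0.97, adjusted p = 0.0252) from 2 and 8 counts to 2.36 and 7.73 CPM, between 4.06 and 6.79 when single libraries were left out, the lowest without P1 GFP+ replicate 1 and the highest without P1 GFP+ replicate 2. *Kcnj8* rose by 2.54 (SE 0.31, adjusted p = 0.00844) to 5.74 and 7.16 CPM, a call lost without P1 GFP+ replicate 2 (2.34), and vessel and pericyte markers moved with it, as 6 of 8 stood higher in both P6 GFP+ libraries than in both P1 GFP+ libraries. Among them *Rgs5*, a pericyte marker, went from 10.7 and 10.2 CPM to 54.3 and 149 CPM, whereas *Pdgfrb* went from 212 and 238 CPM to 37.8 and 96.3 CPM, and the sum of the list from 249 and 272 CPM to 144 and 443 CPM. *Kcnk6* rose by 2.28 (SE 0.48), by 1.66 without P6 GFP+ replicate 2, and lost its call without P1 GFP+ replicate 2 (1.97). The part of RNA from other cells in these changes was not tested. *Kcna2* and *Kcnq3* did not pass the test, with 5.40 and 28.3 CPM and with 4.39 and 18.3 CPM in the P6 GFP+ replicates against 33.5 and 35.2 CPM and 10.5 and 8.20 CPM at P1.

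In GFP- cells, which were compared across ages in the same way, *Kcnk3*, *Kcnj15*, *Kcng4*, *Kcnma1*, *Kcna4*, *Kcne4* and *Kcna1* rose and *Kcnmb2*, *Kcnh7*, *Kcnt1*, *Kcnab1* and *Kcnd3* fell. In all 12 members rose, 11 fell and 41 did not pass the test, where 19.1% of 18920 genes were called, 11.3% as higher at P6 and 7.87% as lower. With library totals in place of TMM scaling, which shifted the median of all genes by -0.19 on the log2 scale, the counts were 10 higher and 15 lower. With the study's criteria 4 members rose and 0 fell, where 1.43% and 0.418% of all genes did (1.85% together). Under these criteria 1 rose without P6 GFP- replicate 1, 2 without P6 GFP- replicate 2, 3 rose and 5 fell without P1 GFP- replicate 1, and 5 rose and 3 fell with DESeq2. Inward rectifiers rose in 4 and fell in 0 of 8, and auxiliary subunits rose in 1 and fell in 3 of 7. *Kcnk3* rose by 3.49 (SE 0.20, adjusted p = 2.14e-04) from 1.45 and 1.74 CPM to 16.1 and 15.6 CPM. *Kcnj15* rose by 3.22 (SE 0.28, adjusted p = 9.27e-04) from 0.66 and 0.55 CPM to 4.91 and 4.96 CPM, and *Kcna4* by 2.00 (SE 0.23) from 2.96 and 4.25 CPM to 13.2 and 12.2 CPM. *Kcnma1* rose by 2.03 (SE 0.36) to 23.6 and 26.3 CPM, by 2.78 without P1 GFP- replicate 2, and was lost without either P6 GFP- library (2.08 and 1.996). *Kcnd3* fell by 1.21 (SE 0.13, adjusted p = 0.00171), *Kcnt1* by 1.65 (SE 0.22, adjusted p = 0.00359) and *Kcnab1* by 1.31 (SE 0.18, adjusted p = 0.0039).

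Of the 23 calls in GFP- cells, 8 held whichever library was left out: *Kcna1*, *Kcna4*, *Kcnab1*, *Kcnd3*, *Kcne4*, *Kcnj15*, *Kcnk3* and *Kcnt1*. With all 8 libraries in the fit, however, the calls of *Kcna1* and *Kcne4* were lost, as were those of *Kcnk2* and *Kcnk6*. Without P6 GFP- replicate 1 and replicate 2, 15 and 14 calls were lost, and these included *Kcnh7* (log2 change -2.04, and -2.70 and -1.57 without them) and *Kcnmb2* (-2.15, and -2.19 and -2.09). *Kcng4* rose by 2.10 (SE 0.30) and was lost without P6 GFP- replicate 1 (1.90). Without P1 GFP- replicate 2, *Kcnh7* was at -1.43 and *Kcnmb2* at -1.26.

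The comparisons of the 2 ages in GFP+ and GFP- cells share no libraries. Of 58 members tested in both, 10 passed the test in both fractions, where 8.37% of 16868 genes did, and 6 of these rose in both, namely *Kcna1*, *Kcne4*, *Kcnj8*, *Kcnj13*, *Kcnk3* and *Kcnk6*, while *Kcnip4* and *Kcnmb2* fell in both (5.35% and 2.21% of all genes). *Kcnd3* and *Kcnk2* went in opposite directions, as 0.812% of all genes did. *Kcnd3* rose by 1.56 (SE 0.29, adjusted p = 0.024) in GFP+ cells, where its call was lost without either P1 GFP+ library (1.74 and 1.41), and fell by 1.21 in GFP- cells. *Kcnk2* rose by 1.89 (SE 0.40, adjusted p = 0.0324) in GFP+ cells, lost without either P1 GFP+ library (1.65 and 2.14), and fell by 0.84 (SE 0.20, adjusted p = 0.031) in GFP- cells, lost without either P6 GFP- library (-0.92 and -0.75). Both stayed lower in GFP+ than in GFP- cells at P6, as their levels show.

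**Figure D5:**
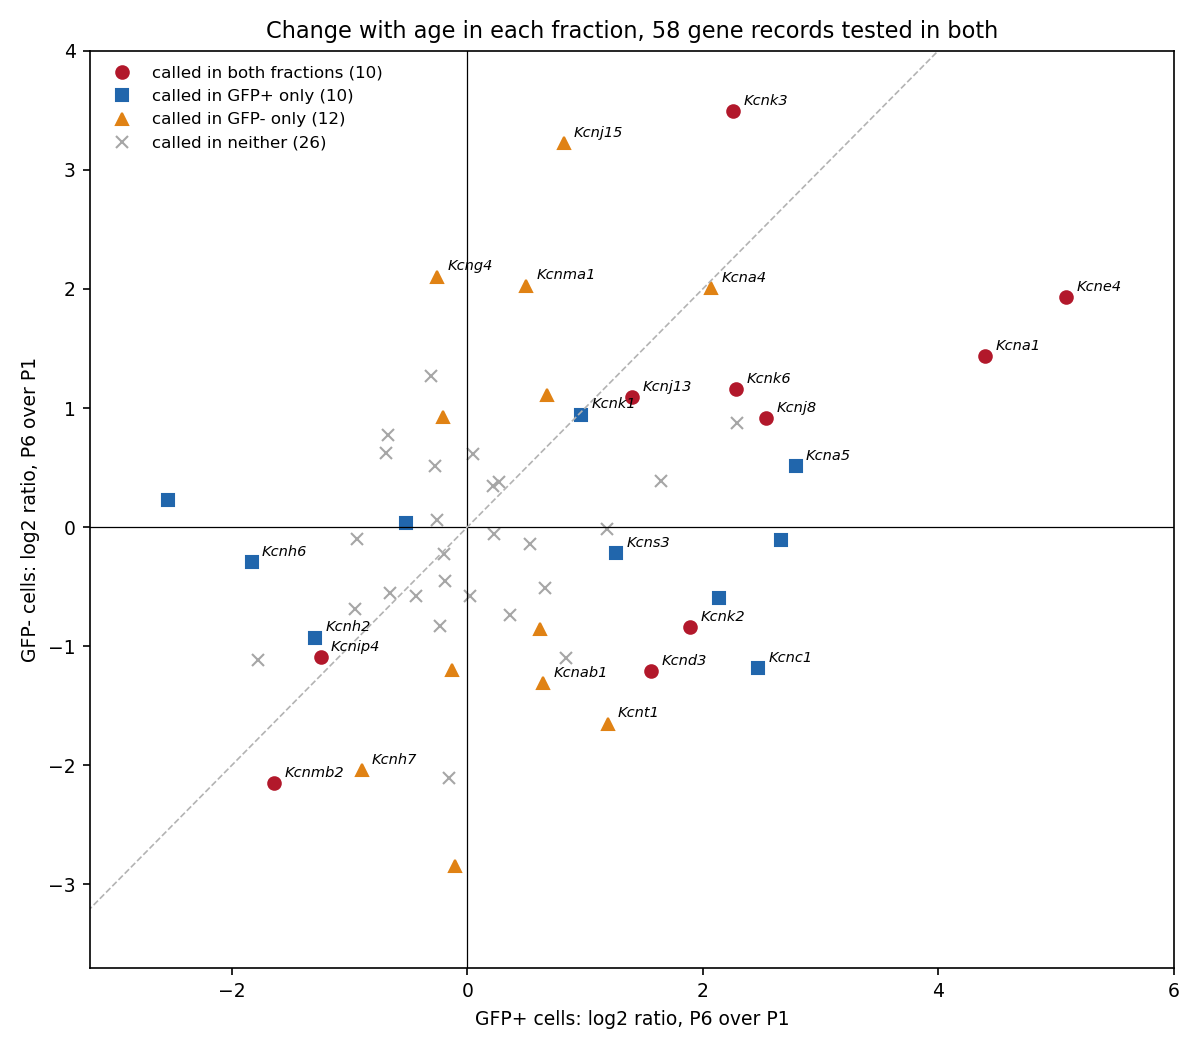
Log2 ratio of P6 to P1 in GFP+ cells (x axis) and GFP- cells (y axis) for the 58 gene records tested in both, from edgeR, with symbols for the fractions in which the change passed an adjusted p of 0.05. *Kcnk3* lies high in both, *Kcnh6* lies to the left of zero near no change in GFP- cells, and *Kcnd3* and *Kcnk2* lie in the lower right quadrant.

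Whether the ratio of GFP+ to GFP- cells itself differed between the ages was tested as an interaction over all 8 libraries. For 11 members the ratio was higher at P6 than at P1 and for 4 it was lower, where 6.38% of 19233 genes were called, 3.6% as higher and 2.79% as lower. The median of the log2 difference was 0.53 over the members and 0.03 over all genes. The ratio of *Kcnh6* was lower at P6 by a log2 difference of -1.56 ± 0.19 (adjusted p = 0.00375) and that of *Kcnd3* was higher by 2.75 ± 0.27 (adjusted p = 0.00191), and these were the calls that held whichever of the 8 libraries was left out. The ratio of *Kcnt1* was higher by 2.84 ± 0.40 (adjusted p = 0.00687), a call lost only without P6 GFP- replicate 1 (2.74). The differences of *Kcna1*, *Kcnc1* and *Kcnk2* were 2.93 ± 0.63, 3.63 ± 0.72 and 2.74 ± 0.43, and for *Kcna1* the difference was 1.94 without P6 GFP+ replicate 2, and for *Kcnc1* 2.79 without P1 GFP- replicate 2 and 4.21 without replicate 1. The calls of *Kcna1*, *Kcnc1* and *Kcnk2* were each lost without P1 GFP+ replicate 1 (3.43, 3.90 and 2.46) and without either P6 GFP- library. For *Kcna10* and *Kcnk1* the ratio was not shown to differ between ages, with differences of 1.19 ± 0.63 and 0.00 ± 0.46 (adjusted p = 0.328 and 1).

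Other genes of the same pathway were taken from a list of partner proteins that are not members. Of 9 such partners, 8 were tested at P1, and 0 were higher and 5 lower in GFP+ cells, while at P6 3 were higher and 4 lower of 9, beside 53.6% of all genes called at P1 and 33.5% at P6. *Abcc9*, the sulphonylurea receptor that joins the *Kcnj8* pore, stood at a mean of 2.48 CPM in P1 GFP+ cells against 44.8 CPM (log2 ratio -4.07 ± 0.18, adjusted p = 2.43e-05) and 9.18 against 56.7 CPM at P6 (log2 ratio -2.61 ± 0.70), where the call was lost without P6 GFP- replicate 2 (-2.16) and *Abcc9* was at -1.86 and -4.17 without P6 GFP+ replicate 1 and replicate 2. *Dpp6* and *Dpp10*, the dipeptidyl peptidase-like partners of *Kcnd* channels, were lower at P1, with log2 ratios of -1.19 ± 0.39 and -1.11 ± 0.14, and *Dpp10* at P6 (-1.32 ± 0.37). The P1 call of *Dpp6* was lost without either P1 GFP+ library (-1.21 and -1.15) and its ratio was -0.47 without P1 GFP- replicate 2, and the P6 call of *Dpp10* was lost without either P6 GFP- library (-1.15 and -1.46) and its ratio was -1.94 without P6 GFP+ replicate 2. *Lrrc55* and *Lrrc38*, gamma subunits of the *Kcnma1* channel, were lower at both ages, with P1 ratios of -3.54 and -2.92 and P6 ratios of -2.50 and -3.10. *Lrrc55* was at -2.64 at P1 without P1 GFP- replicate 2, both were further from 0 at P6 without P6 GFP+ replicate 2 (-3.16 and -3.95), and the P1 call of *Lrrc38* was lost without P1 GFP+ replicate 1 (-2.77). The gamma subunits *Lrrc52* and *Lrrc26* went the other way at P6, with log2 ratios of 4.03 ± 0.52 and 2.33 ± 0.47. Their levels were low, at means of 0.801 against 0.0465 CPM and 0.684 against 0.132 CPM. At P1 *Lrrc52* was not called and *Lrrc26* was not tested. *Amigo1*, an adhesion protein that joins voltage-gated channels, was not called at P1 (34.5 against 33.4 CPM) and was higher in GFP+ cells at P6 (57.0 against 33.4 CPM, log2 ratio 0.76), a call lost without either P6 GFP- library (0.94 and 0.63). The interaction was called for 0 of the 9 partners.

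Of the 4 genes set aside by the rule, *Kcnj10* was higher in GFP+ cells at both ages (128 against 43.4 CPM at P1 and 463 against 93.9 CPM at P6), as was *Kcnj16* (23.8 against 2.36 CPM and 521 against 21.4 CPM). *Kcnq1* and *Kcne1* were not called in either comparison of fractions.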

How the data were processed

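Cells were sorted as GFP+ and GFP- from P1 and P6 cochleas, with 2 libraries in each of 4 groups. The authors aligned reads to mm9 with TopHat (1.4.0 in the submitters' processing notes) and deposited raw counts of reads per Ensembl gene from HTSeq, without normalization. The counting mode and strand setting are not given in the sources used here. Rows that name no gene (23.8% to 35.3% of all counts) were left out. Symbols, exon lengths and coding sequences came from the NCBIM37 annotation.

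Each comparison was fitted on its 4 libraries with edgeR 4.0.16 in R 4.3.3 (filterByExpr with minimum count 10 and minimum total 15, TMM, quasi-likelihood test, Benjamini-Hochberg adjustment over all genes tested), and the interaction on all 8. A call means an adjusted p below 0.05. The SE is the log2 ratio divided by the square root of F. CPM is relative to the gene total of a library, not to TMM. The fits were checked on simulated counts. DESeq2 1.42.0, Python 3.11.15 and matplotlib 3.10.9 were also used.

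The text gives values for members with the largest changes (up to 6 per direction and comparison at 5 CPM or more), the 5 highest per group, those past the interaction test and a list known from the cochlea, and names other members by class. The members, lists and this rule were chosen with earlier results of these data known. Alternatives were other scalings, DESeq2, no low-count filter, a fit over 8 libraries, a replicate block, a test against a fold of 4, other floors for membership and leaving out each library. A crossed replicate block was added after seeing the data. Leaving out a library leaves 1 in its group, which is assumed to vary like the others. Some members are not reported here by name, although counts over the members include them.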

Additional observations from a re-analysis of the deposited data

Results flagged for a closer look

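For 15 members the interaction test passed an adjusted p of 0.05, so that the log2 ratio of GFP+ to GFP- cells differed between P6 and P1, and most are named here. Differences are given as P6 minus P1, and 6.38% of all genes tested passed the same test.

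Among the voltage-gated pore subunits, the ratio was higher at P6 for *Kcnc1* (3.63), *Kcna1* (2.93), *Kcnd3* (2.75), *Kcnc4* (2.74) and *Kcna5* (2.28), and lower for *Kcnh6* (-1.56). Of the modifiers, *Kcns3* differed by 1.46 and *Kcng4* by -2.38. The auxiliary subunits *Kcnab1* and *Kcnip3* differed by 1.95 and 1.45, the sodium-activated *Kcnt1* by 2.84 and the inward rectifier *Kcnj8* by 1.59. The tandem-pore subunits *Kcnk2* and *Kcnk3* differed by 2.74 and -1.26. For *Kcnd3*, *Kcnk2*, *Kcnt1*, *Kcnab1* and *Kcnip3* the higher ratio at P6 came with a fall in GFP- cells that passed its own test. Of these, *Kcnd3* and *Kcnk2* also had a rise in GFP+ cells that passed its own test. For *Kcna5*, *Kcnc1*, *Kcnc4* and *Kcns3* the rise in GFP+ cells passed its own test and the change in GFP- cells did not. For *Kcnc1*, *Kcnc4* and *Kcns3* both P6 GFP- libraries nevertheless stood below both P1 GFP- libraries, as they did for 48.9% of all genes tested.

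The calls for *Kcnd3* and *Kcnh6* held whichever library was left out, and 13 calls were lost without at least 1 library. Without P6 GFP+ replicate 2, which holds more marker counts of other cell types, the difference of *Kcnc4* was 2.33, against 2.74 with it. That fit left 1 P6 GFP+ library, so it cannot decide how far replicate 2 carried the 15 calls. Without P6 GFP- replicate 1, 13 of the 15 were lost, and *Kcnd3* and *Kcnh6* were kept.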

How the results depend on the processing

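With 2 libraries a group, calls near the threshold moved with the setting, while among the values of single genes under alternatives 3642 kept their side of the threshold, 228 lost a call and 255 gained one.

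The labels do not say whether the replicate numbers pair the libraries. The correlation of replicate differences was 0.03 between fractions at P1 and 0.06 at P6, and -0.15 and -0.33 between ages. These values compare different cell populations or ages and cannot decide whether libraries were paired. With the replicate numbers as a replicate block the counts of members higher and lower were 17 and 32 at P1, 11 and 21 at P6, 14 and 5 for age in GFP+ cells, 12 and 7 in GFP- cells, and 3 and 5 for the interaction. With crossed numbers, added after seeing the data, the age counts were 14 and 5 in GFP+ and 15 and 19 in GFP- cells.

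Without a filter on low counts the members lower were 35 at P6, 10 for age in GFP+ cells and 20 in GFP- cells, and the interaction gave 21 and 10. The DESeq2 test gave 17 lower members for age in GFP- cells and 7 with a lower ratio in the interaction. A test against a fold of 4 (glmTreat) gave 4 higher and 9 lower members at P1, 3 and 0 at P6, 0 higher for age in GFP+ cells and 1 in GFP- cells. Leaving out single libraries gave 13 to 20 higher and 27 to 36 lower at P1, 9 to 15 and 6 to 36 at P6, 4 to 30 and 2 to 19 for age in GFP+ cells, 5 to 17 and 3 to 22 in GFP- cells, and 1 to 17 and 1 to 12 for the interaction, the cause of which was not tested. Library totals in place of TMM shifted the median log2 value of all genes by -0.10 at P1, 0.01 at P6, -0.09 and -0.19 for age, and 0.12 in the interaction. Other floors gave 56 to 75 members. The shallowest library, P6 GFP+ replicate 1, held 17769024 counts on genes, so a level from 3 counts there is 0.169 CPM.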
